A study of Mus musculus with 6 samples.

Results

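The cells described here are 583 sorted brain cells of Tbx18-CreERT2/Ai14-flx mice that the study placed in cluster 3 of the Tbx18 line and named microglia. They were chosen by that cluster number in the deposited annotation and by library: 318 of the 3845 cells of the physical injury library and 265 of the 2047 cells of the ischemic injury library, out of 17033 cells in the whole series. The rule used no gene directly, but the cluster had been formed on the expression of these same cells, so that the levels of its genes are a description and not a test of what the cells are. Cre recombinase in these mice is driven by the Tbx18 promoter and is active only with tamoxifen, and Ai14 is the reporter allele that turns on the red protein tdT in cells where Cre has acted and in their progeny. All mice of the line, injured or not, carried both alleles and were 3 to 4 months old, and the injured mice had been given tamoxifen 7 days before injury. The study states that the uninjured (naïve) mice were given tamoxifen too, before their tissue was taken. Physical injury was an injection of saline into the cerebral cortex, ischemic injury was an injection of the vasoconstrictors ET-1 and L-NAME, and the cortex was taken 3 days later. The tdT-positive, DAPI-negative live cells of several animals of both sexes were pooled into 1 droplet library per condition. There is therefore no replicate, no test between the injuries was made, and the intervals below (95%, exact Poisson for levels and exact Clopper-Pearson for shares) cover counting error only. Levels are set beside those of NG2-Cre-ERT2/Ai14-flx mice of the same age, in which Cre follows the NG2 gene (Cspg4), and whose physical and ischemic injury libraries came from mice given the same tamoxifen, injections and sort.

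Myeloid cells of the injured brain come from several sources. Microglia live in the brain tissue from development on, border macrophages live around vessels and in the meninges, and monocytes and dendritic cells can enter from the blood after injury. Dendritic cells and activated macrophages take up proteins, cut them in the endosome and show the peptides on MHC class II molecules to CD4 T cells. The chain Cd74 holds the peptide groove closed until the H2-DM proteins exchange it for a peptide, and H2-O proteins limit that exchange.

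The 318 cells after physical injury held 3985356 UMIs (transcript molecules counted once), with a median of 12086.5 UMIs and 3097 genes per cell, and the 265 cells after ischemic injury held 4132590 UMIs, with medians of 15595 UMIs and 3549 genes. Levels are given as CPM, the usual scaled share of a gene among all UMIs of these cells in the library. No cell barcode of the cluster was shared between both libraries, and 3 cells after physical and 1 after ischemic injury had a barcode that also occurred in another library of the series. The naïve library also has 76 cells in cluster 3, which were left out. They had a median of 1117.5 UMIs, 0 UMIs of Cd74, Lyz2, Ptprc and Tyrobp (0 of 76 cells, which allows a share of up to 3.95%) and the pericyte genes Vtn in 76 and Rgs5 in 75 of 76 cells. The floor is 3 counts and limits the share of cells with a UMI, not of cells that express a gene. No naïve level is therefore given.

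The label was checked first. The genes that mark the cluster were present in both libraries. Cd74 was at 13818 CPM (13703 to 13934) after physical and 11818 CPM (11713 to 11923) after ischemic injury. H2-Aa, a chain of the MHC class II molecule (mm10 chromosome 17, 34282744 to 34287823), was at 6511 and 5476 CPM. The lysozyme gene Lyz2 was at 6541 and 5724 CPM. C1qa, a chain of the complement starter C1q (chromosome 4, 136895917 to 136898803), was at 2017 CPM (1973 to 2061) and 1479 CPM (1442 to 1517). The macrophage genes Ms4a7 and Mrc1, a mannose receptor, were at 274 and 613 CPM after physical and at 286 and 484 CPM after ischemic injury. The 10 pan-myeloid markers (such as Tyrobp, Fcer1g and Csf1r) summed to 8408 and 8524 CPM, and at least 6 of them were found in 91.5% (87.9% to 94.3%) and 87.5% (83.0% to 91.3%) of the cells.

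Free RNA in the droplets gives UMIs in cells that do not express a gene, so the cells were set against endothelial cells at equal depth. With every cell thinned to 1000 UMIs, which left out 0 and 2 cells of the cluster, Cd74 had a UMI in 81.4% and 73.8% of its cells, and in 1.10% and 1.08% of the endothelial cells of cluster 0 from the same libraries. Unthinned, those shares were 88.1% and 82.3% in the cluster, and 7.77% and 7.73% in the endothelial cells, whose median depth was 6701.5 UMIs after physical and 8981 UMIs after ischemic injury. For Ccr2, the receptor with which monocytes leave the bone marrow, the thinned shares were 33.3% and 36.1% against 0 of 1735 and 0 of 1478 endothelial cells (0%, which at a floor of 3 counts allows shares of cells with a UMI of up to 0.173% and 0.203%).

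The defining genes of microglia were low. P2ry12, the ADP receptor of resting microglia, was at 39.4 CPM (33.5 to 46.1) and 43.3 CPM (37.2 to 50.1), with a UMI in 28.3% and 28.7% of the cells. Tmem119 was at 9.53 and 13.6 CPM, in 7.86% and 12.1% of cells. Sall1, a transcription factor restricted to microglia among macrophages, had 2 and 4 UMIs in all cells together, each time in 1 cell or 0.314% and 0.377% of the cells. The cluster of the NG2 line that the study also named microglia, cluster 9, has 36 cells after physical and 164 cells after ischemic injury, and it showed the opposite pattern. P2ry12 was at 633 and 406 CPM there, Tmem119 at 179 and 206 CPM, and Sall1 at 101 and 75.6 CPM, with a UMI of Sall1 in 55.6% and 54.3% of those cells. Cd74 was at 66.1 and 132 CPM in the NG2 cluster, Ccr2 at 0 (up to 5.22 CPM at 3 counts) and 5.84 CPM, and Mrc1 at 13.9 and 68.1 CPM.

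Summed over the lists, the 12 microglia genes reached 1100 and 1019 CPM in the Tbx18 cells and 10992 and 9751 CPM in the NG2 cells. The endothelial cells of cluster 0 had sums of 1593 and 1612 CPM, so that some genes of this list are not of microglia alone. The 10 MHC class II genes reached 33965 and 29427 CPM in the Tbx18 cells and 273 and 408 CPM in the NG2 cells. The 12 border macrophage genes reached 2135 and 1809 CPM against 186 and 510 CPM, and the 12 monocyte genes 8299 and 8413 CPM against 541 and 1034 CPM. Most of the monocyte sum in the Tbx18 cells was Lyz2, at the levels given above, so that it is largely the level of that gene. C1qa was also higher in the NG2 cells, at 5138 and 6017 CPM. Both tables were made apart from each other, the lines differ in driver, and the clusters differ in number of cells, so these values stand side by side without a test. These RNA levels thus go against the label microglia for most of the Tbx18 cells, and they are called the cells of cluster 3 below. The study also reported protein staining for Iba1 in tdT-positive cells of the Tbx18 line after injury, which is not examined here. Aif1, the gene of Iba1, counts here as a pan-myeloid marker and not as one of the microglia genes.

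**Figure D1:**
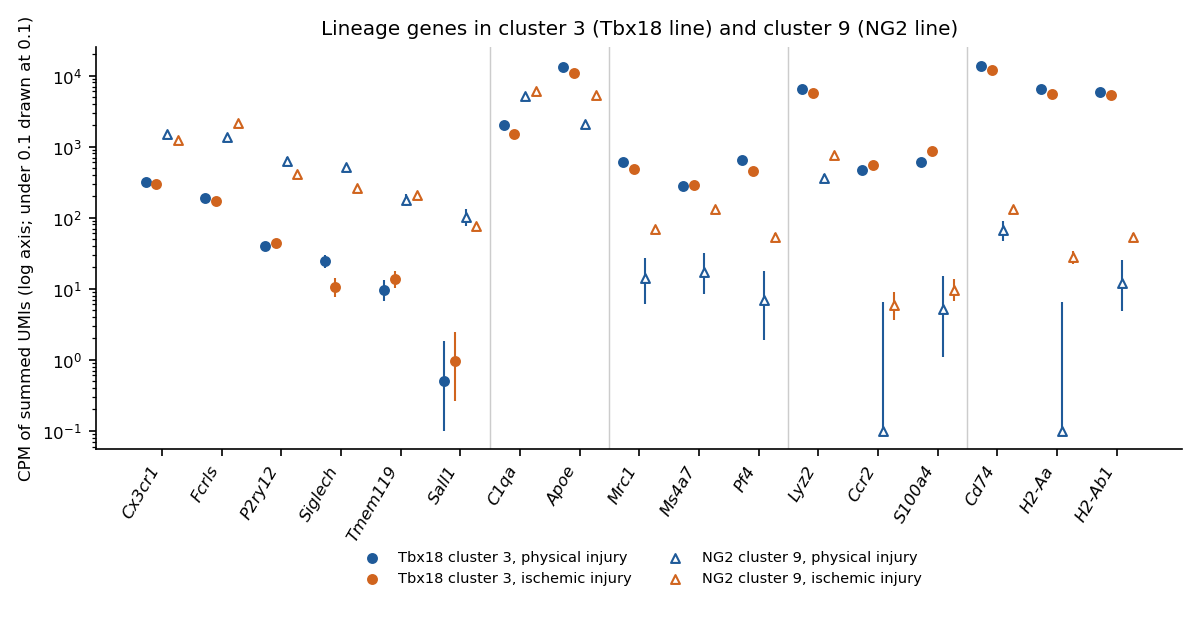
Levels (CPM of summed UMIs, log axis) of 17 lineage genes in cluster 3 of the Tbx18 line (filled circles) and cluster 9 of the NG2 line (open triangles) after physical (blue) and ischemic (orange) injury; bars are 95% Poisson intervals, and levels of 0 are drawn at 0.1. Genes from Cx3cr1 to Sall1 lie higher in the NG2 cells, and Mrc1, Ms4a7, Pf4, Lyz2, Ccr2, S100a4 and the MHC class II genes lie higher in the Tbx18 cells.

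The MHC class II genes of the mouse lie together on chromosome 17 and are switched on by CIITA through short promoter boxes, among them the Y box, bound by NF-Y. Because these genes are what marks the cluster, the stretch from 120 to 21 bases before the start site is shown for the 6 of them that have a RefSeq promoter (GRCm38.p6, the mm10 build) with the letters TGATTGG. Capitals mark TGATTGG and, where it lies 5 to 40 bases before it, ATGATG, letters of the X box region. These motifs were chosen with the sequences in view.
H2-Aa, minus strand, chr17:34287844-34287943: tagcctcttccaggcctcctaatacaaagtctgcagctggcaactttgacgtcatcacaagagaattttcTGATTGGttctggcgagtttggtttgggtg
H2-Eb1, plus strand, chr17:34305747-34305846: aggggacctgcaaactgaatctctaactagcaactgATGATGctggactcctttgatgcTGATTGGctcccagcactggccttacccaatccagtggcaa
H2-DMb1, plus strand, chr17:34153071-34153170: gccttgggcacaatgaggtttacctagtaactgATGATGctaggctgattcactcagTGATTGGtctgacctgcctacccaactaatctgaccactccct
H2-DMb2, plus strand, chr17:34145129-34145228: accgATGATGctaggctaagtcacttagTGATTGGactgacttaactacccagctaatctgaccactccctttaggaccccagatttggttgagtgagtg
H2-Oa, plus strand, chr17:34092259-34092358: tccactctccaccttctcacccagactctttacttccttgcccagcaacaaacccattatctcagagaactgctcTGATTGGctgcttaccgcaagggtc
H2-Ob, plus strand, chr17:34238785-34238884: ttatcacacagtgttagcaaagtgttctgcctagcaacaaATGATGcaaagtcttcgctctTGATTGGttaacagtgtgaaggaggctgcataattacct

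TGATTGG, read on both strands in the 250 bases before the start, is in 6 of the 7 MHC class II genes with a promoter entry and in 7.23% of all 32851 promoters. ATGATG followed by TGATTGG at that spacing is in 4 of the 7 genes and in 0.0517% of all promoters. H2-DMa is the seventh gene and holds neither. A match is a description of these letters and not a binding site.

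The classical chains were abundant in both libraries. H2-Ab1 was at 5883 CPM after physical and 5348 CPM after ischemic injury, and H2-Eb1 at 6431 and 5705 CPM. The peptide exchange genes H2-DMa and H2-DMb1 were at 629.6 and 506 CPM after physical and at 479.8 and 404 CPM after ischemic injury. H2-DMb2 was at 55.5 and 52.3 CPM, H2-Oa at 39.6 and 42.3 CPM and H2-Ob at 20.8 and 20.6 CPM. Ciita, the master activator, was at 70.3 CPM (62.3 to 79.0) and 81.1 CPM (72.6 to 90.2). With 1 library each, a gene was counted as different when its CPM, with a pseudocount of 1 CPM, differed at least 2-fold and reached 50 CPM in the higher library. Of 3337 genes that reached it, 21 (0.629%) were higher after ischemic and 17 (0.509%) higher after physical injury. None of the 8 MHC class II genes with enough counts was among them, and their median log2 ratio, ischemic over physical, was -0.20, beside 0.07 for all 3337 genes. Either way 1.14% of all genes were past 2-fold. A list with none past 2-fold, here and below, is therefore near the share over all genes.

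The level differed far more between cells than between the libraries. The summed CPM of the MHC class II list had a median of 38278 CPM per cell after physical injury, with quartiles of 5415 and 52334 CPM. After ischemic injury the median was 31338 CPM, with quartiles of 648 and 46679 CPM. Cells under 1000 CPM were 60 of 318 (18.9%, 14.7% to 23.6%) after physical and 72 of 265 (27.2%, 21.9% to 33.0%) after ischemic injury. The line of 1000 CPM was chosen after seeing the data, near the least filled stretch between low and high cells. The complement list had a median of 7307 CPM after physical injury, with quartiles of 997 and 10977 CPM, and a median of 2960 CPM after ischemic injury, with quartiles of 709.9 and 9039 CPM.

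**Figure D2:**
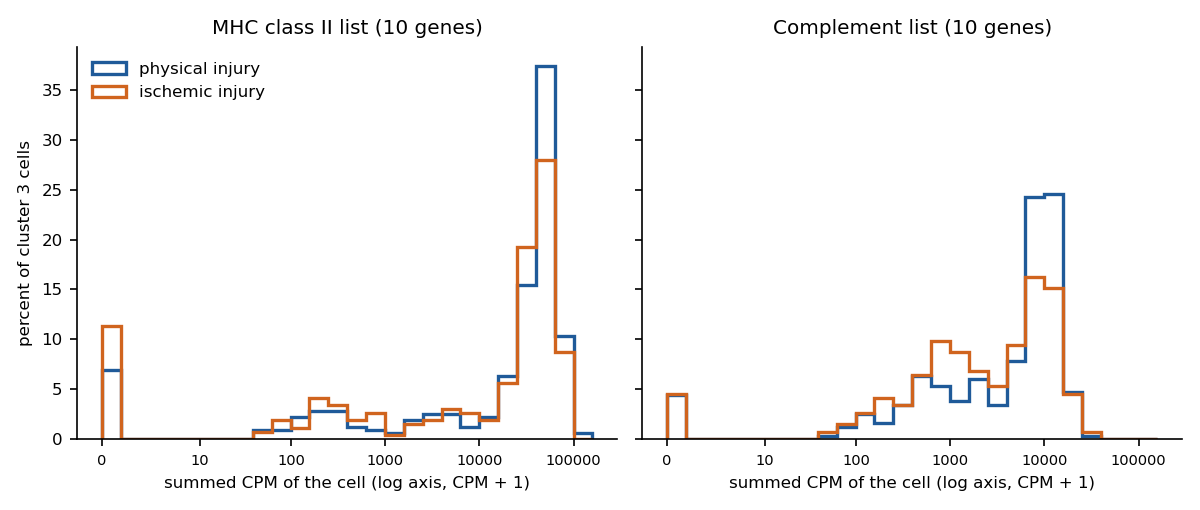
Percent of cluster 3 cells (y) by the summed CPM per cell of the MHC class II and complement lists (x, log axis), for the physical (blue) and ischemic (orange) injury libraries. Most cells lie above 10000 CPM for MHC class II, a smaller group lies below 1000 CPM or at 0, and a larger share of the ischemic injury cells are in that low group.

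Of the costimulation genes, Cd86 and Cd83 were found in most of these cells. Cd86, which gives the second signal to T cells, was at 893 CPM (864 to 923) after physical and 1079 CPM (1048 to 1111) after ischemic injury, in 88.1% and 84.9% of cells. Cd83 was at 875 and 789 CPM, in 86.8% and 81.1% of cells, and Cd80 at 107 and 156 CPM, in 43.7% and 51.3%. Cd40 was found in 21.7% and 25.7% of cells. The checkpoint ligand Cd274 (PD-L1) was at 47.4 and 80.3 CPM, a ratio of 1.68, in 19.5% and 22.6% of cells. None of the 5 costimulation genes with enough counts was past 2-fold, and their median log2 ratio was 0.55. Of the 9 MHC class I genes, 8 had enough counts and none was past 2-fold (median 0.16). B2m, the light chain of all class I molecules, was at 1729 and 1996 CPM, and H2-K1 at 854 and 966 CPM.

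Complement and uptake genes were expressed beside the antigen presentation genes. C1qb was at 2202 CPM after physical and 1753 CPM after ischemic injury, and C1qc at 1281 and 987 CPM. Of the 8 complement genes with enough counts, 6 were lower after ischemic injury, none past 2-fold, with a median log2 ratio of -0.29. Cfp, which stabilises the complement convertase, was one of the others, at 144 and 201 CPM. A UMI of a C1q gene was found in 76.1% (71.0% to 80.7%) of cells after physical and 60.4% (54.2% to 66.3%) after ischemic injury. Thinned to 1000 UMIs, these were 68.2% and 53.6%, against 0.807% and 0.541% of the endothelial cells. Trem2, a lipid receptor of macrophages, was at 391 and 293 CPM, Cd14 at 938 and 779.7 CPM and Cd36, a scavenger receptor, at 195 and 109 CPM. None of the 10 uptake receptors and none of the 10 lysosome genes with enough counts was past 2-fold. Of the list of disease-associated microglia genes, 6 had enough counts and 1, Spp1, was past 2-fold, beside 1.14% of all 3337 genes. The lipid carrier Apoe was at 13223 and 10699 CPM. It had a UMI in 82.7% and 71.7% of cells, and in 90.8% and 93.0% of the endothelial cells.

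The same cells often carried genes of several myeloid types. A UMI of MHC class II, of C1q and of Ccr2 was found together in 201 of 318 cells (63.2%, 57.6% to 68.5%) after physical and 139 of 265 cells (52.5%, 46.3% to 58.6%) after ischemic injury. At 1000 UMIs per cell the shares were 22.3% and 17.5%. In the endothelial cells thinned alike, 0 of 1735 and 0 of 1478 carried all of them (up to 0.173% and 0.203% at 3 counts). At least 1 of the border macrophage genes Mrc1, Pf4, Cd163, Lyve1, F13a1 and Ms4a7 was found with Ccr2 in 73.6% and 70.2% of cells, or 21.4% and 19.4% after thinning.

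Among the monocyte genes, Ccr2 (chromosome 9, 124101950 to 124113557) was at 467 CPM (446 to 489) after physical and 554 CPM (531 to 577) after ischemic injury. S100a4 was at 597 and 861 CPM. Ly6c2, high on inflammatory monocytes, was at 45.7 and 52.0 CPM and was found in 7.86% and 13.6% of cells. By the sub-clusters described below, its level was 324 CPM in the T and NK cell-like cells and 134 CPM in sub-cluster 3, the next highest. Of the 8 monocyte genes with enough counts, 2 were past 2-fold, both higher after ischemic injury, with a list median of 0.37. Among all 3337 genes 0.629% were past 2-fold that way. Chil3, a chitinase-like protein of monocytes, was at 25.1 CPM (20.4 to 30.5) and 117 CPM (107 to 128), found in 22 and 48 cells. Of its UMIs, 5 cells held 76% and 54.9%. Fibronectin, Fn1, was at 266 CPM and 620.2 CPM. Its log2 ratio was 1.22, and 2.00 with the filters of the study's methods applied again. It was 1.71 without cells with 3 or more UMIs of vascular markers. These markers are the endothelial, pericyte, smooth muscle and fibroblast lists, and 201 cells after physical and 209 after ischemic injury were left. Fn1 was also found in 89.7% of the endothelial cells after physical injury, against 30.2% of the cells of cluster 3.

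Of the 6 border macrophage genes with enough counts none was past 2-fold, with a median of -0.13. Pf4 was at 647 and 449 CPM, F13a1 at 297 and 281 CPM, and Cd163 at 29.9 and 35.1 CPM. Of the 7 dendritic cell genes with enough counts, 2 were past 2-fold, both higher after ischemic injury, with a median of 0.27. The share of all 3337 genes past 2-fold that way was 0.629%. Flt3, the growth factor receptor of dendritic cells, was at 26.8 and 59.0 CPM, in 16.7% and 25.3% of cells. Fscn1, an actin bundler of migrating dendritic cells, was at 31.1 and 64.1 CPM. Both fell under 2-fold with the filters of the study's methods applied again (log2 ratios of 0.78 for Flt3 and 0.96 for Fscn1) and with the mean of the cells' own CPM (0.91 and 0.65), and Flt3 was at 0.38 with cells thinned to 1000 UMIs. Cd209a was at 203 and 220.0 CPM, and Ccr7, which guides dendritic cells to lymph nodes, was at 116 and 140.1 CPM. Xcr1 and Clec9a, which mark the cross-presenting type, were at 9.53 and 7.28 CPM after physical and at 1.94 and 4.36 CPM after ischemic injury.

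Clustering the 583 cells again gave 9 sub-clusters, numbered from 0 by size. They were rebuilt here, with names by hand from marker lists, so that they may differ from a division the study would make. The genes that lead a sub-cluster describe it and are no test, and the numbers of cells per library are given without comparing them. Sub-cluster 2, with 96 cells (47 after physical and 49 after ischemic injury), was dendritic cell-like. Its leading genes were Cd209a, at 798 CPM in it and 40.7 CPM in the other cells, H2-Oa, at 153 and 8.43 CPM, H2-DMb2, at 192 and 13.5 CPM, and the transcription factor Irf4, at 258 and 29.1 CPM. H2-Oa and H2-DMb2, whose promoters are printed above, were thus found in 68.8% and 76.0% of its cells. C1qa was at 115 CPM in it, at 166 CPM after physical and 73.9 CPM after ischemic injury. Apoe was at 193 CPM in it, with 345 UMIs (422 CPM) after physical and 9 UMIs (8.87 CPM) after ischemic injury. Sub-cluster 6, with 24 cells (11 and 13), was also dendritic cell-like, with Ccr7 at 2755 CPM and in all of its cells, Fscn1 at 1113 CPM and the chemokine Ccl22, which draws T cells, at 888 CPM. Of the UMIs of Ccl22, 3 cells held 66.1%, and without them it was at 373 CPM. It had no UMI of Ccr2.

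Sub-cluster 0, the largest with 142 cells (83 and 59), was led by Apod, Cxcl10, Rsad2, Ifit2 and Ifi213, genes of which the last 4 answer to interferon, although the 3 cells with the most UMIs of each held 60.9% of the UMIs of Rsad2 and 54.3% of those of Ifit2. Cxcl10 was at 142 CPM in it and 32.2 CPM in the other cells, and at 78.4 CPM without the 3 cells with the most UMIs. It held C1qa at 2924 CPM, Apoe at 20549 CPM, Cd74 at 14838 CPM and Ccr2 at 581 CPM. It was left unnamed, with no marker of a cell type list among its 10 leading genes. The list with the highest ratio to the other cells was fibroblast, at sums of only 31.5 and 10.7 CPM. Sub-cluster 4, with 58 cells (28 and 30), was low in MHC class II, with Cd74 at 1593 CPM, and had Hmox1, Spp1, Gpnmb and Pf4 among its leading genes. Spp1 was at 2071 CPM in it and 137 CPM elsewhere. Hmox1, which breaks down haem, was at 1104 and 47.1 CPM, but 2 cells held 939 of its 1152 UMIs in the sub-cluster, and its level there was 2134 CPM after physical and 214 CPM after ischemic injury. Without the 3 cells with the most UMIs it was at 145 CPM. Sub-cluster 4 was left unnamed as well, although the 12 border macrophage genes summed to 5080 CPM in it and 1510 CPM in the other cells. Sub-cluster 7, with 22 cells (16 and 6), was border macrophage-like. Cd163 was at 514 CPM in it and 20.6 CPM elsewhere, Cd209f, found in 6 cells, at 194 and 1.14 CPM, and the iron exporter Slc40a1 at 458 and 9.47 CPM. Of its 22 cells, the 3 with the most UMIs of each gene held 57.4% of the UMIs of Cd163, 92.1% of those of Cd209f and 66.7% of those of Slc40a1, and without them the levels were 278, 17.6 and 172 CPM. Cd74 was at 278 CPM after physical injury, with 32 UMIs in 16 cells, and at 2110 CPM after ischemic injury, with 171 UMIs in 6 cells. Sub-cluster 7 also had the highest sum of the 12 microglia genes, at 3020 CPM beside 1010 CPM in the other cells. P2ry12 was at 306 CPM in it and Tmem119 at 20.4 CPM, while Sall1 had no UMI.

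Sub-cluster 3, with 88 cells (44 and 44), was led by S100a9, S100a8, Retnla, Retnlg, Vcan and Hp. More neutrophil than monocyte markers were among its 10 leading genes, so that it was left unnamed, but S100a9 was found in 7 of its cells (7.95%) and Retnla in 8, and the 3 cells with the most of each held 73.5% and 74.3% of their UMIs. The monocyte gene Plac8 was at 636 CPM in it. Sub-cluster 5, with 41 cells (15 and 26), was T and NK cell-like. Nkg7, a granule protein of killer cells, was at 1104 CPM in it and had no UMI in the other cells, Trbc2 was at 723 CPM in it and 0.389 CPM elsewhere, and C1qa had no UMI in its 41 cells. All 41 cells lay under 1000 CPM of MHC class II genes. Of the other cells under that line, 40 were in sub-cluster 4, 19 in sub-cluster 7 and 32 in the rest.

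The leading genes of 2 sub-clusters included genes of vessel cells. In sub-cluster 1, with 100 cells (68 and 32), Acta2, Tagln, Myl9 and Myh11, contractile genes of smooth muscle, had the largest ratios to the other cells, but a few cells carried them. Acta2 was found in 30.0% of its cells and in 20.1% of the other cells, 3 cells held 481 of its 515 UMIs in the sub-cluster, and the 32 cells after ischemic injury held 2 UMIs. Without those 3 cells it was at 35.8 CPM, beside 17.4 CPM in the other cells. Of Tagln, Myl9 and Myh11, the 3 cells with the most of each held 96.6%, 94.8% and 96.7% of the UMIs. The sub-cluster held Cd74 at 18078 CPM, C1qa at 3639 CPM and the scavenger receptor Cd36 at 644 CPM (82.2 CPM elsewhere). Sub-cluster 8, with 12 cells (6 and 6), was led by Flt1 and Cldn5, endothelial genes, at 2192 and 2249 CPM, together with Cd74 at 10628 CPM. Of its 12 cells 7 were among the highest doublet scores of the libraries. The part of cells captured together in these sub-clusters was not tested.

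**Figure D3:**
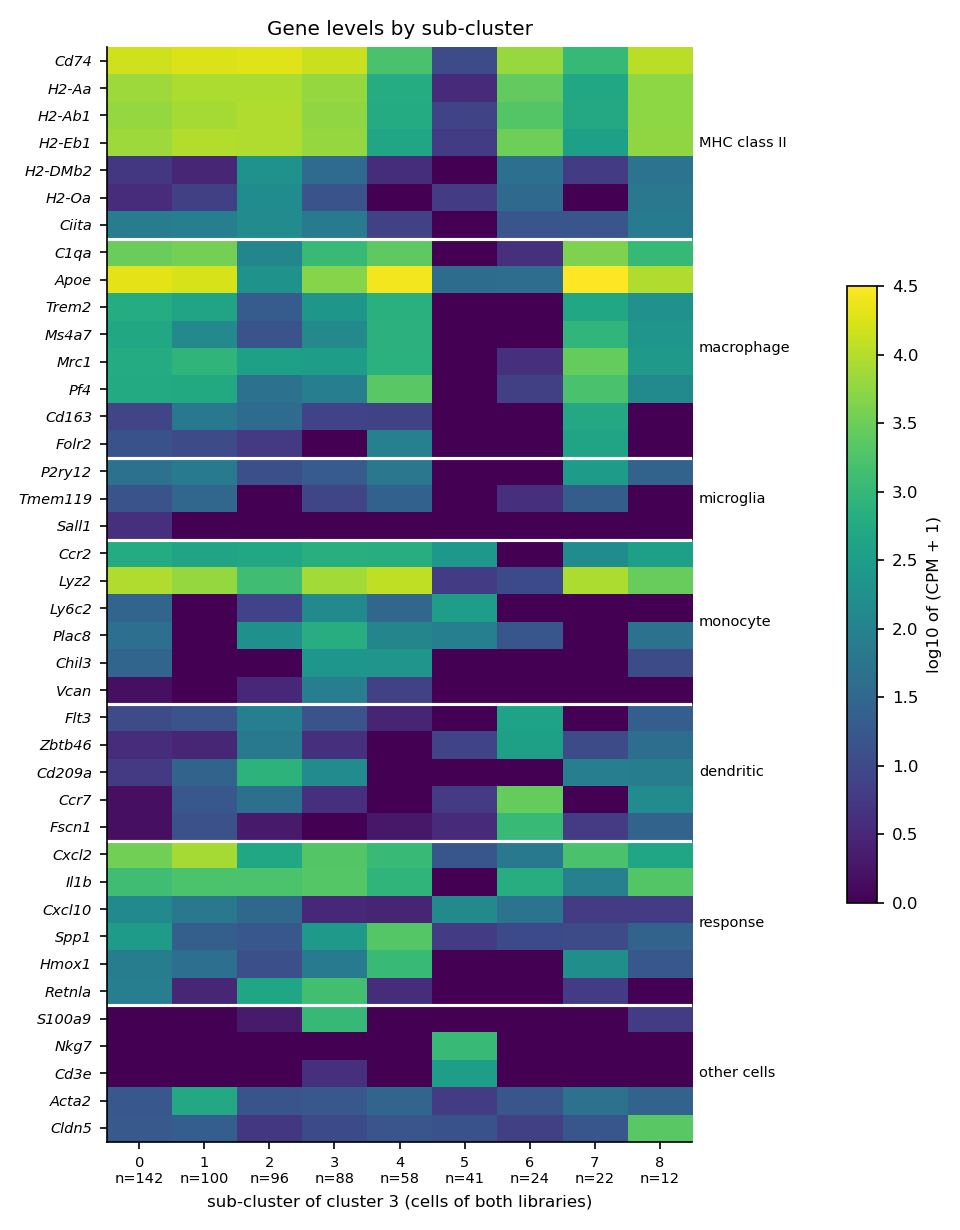
Level of 40 genes (rows, log10 of CPM + 1, colour) in the 9 sub-clusters of cluster 3 (columns, with the number of cells of both libraries). Cd74, H2-Aa, H2-Ab1 and H2-Eb1 are bright in sub-clusters 0 to 3 and dark in 5, Cd209a stands out in 2, Ccr7 in 6, Cd163 in 7, Spp1 in 4 and Nkg7 in 5, while Hmox1 in 4 and Acta2 in 1 come mostly from 2 or 3 cells.

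The cluster made up 8.27% (7.42% to 9.19%) of the sorted cells after physical and 12.9% (11.5% to 14.5%) after ischemic injury, a difference of 4.68 percentage points (2.98 to 6.43). The sort for tdT and the number of other cells set these shares. The smooth muscle cluster 1 held 21.5% of the physical and 2.30% of the ischemic injury cells, and without it the shares were 10.5% and 13.2%, a difference of 2.71 points (0.857 to 4.61). Without endothelial cluster 0 they were 15.5% and 47.4%, a difference of 31.9 points (27.4 to 36.45). In the NG2 line, cluster 9 made up 1.40% and 4.57% of the sorted cells. Tbx18 itself, whose promoter drives Cre in these mice, had 6 UMIs after physical and 3 UMIs after ischemic injury in the cells of cluster 3, in 1.26% and 0.755% of the cells. In the endothelial cells it was found in 0.839% and 0.0672%.

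Several of the largest ratios between the injuries came from few cells. S100a8 and S100a9, which together form calprotectin of neutrophils and monocytes, were at 47.9 and 53.2 CPM after physical and at 277 and 265 CPM after ischemic injury. All 212 UMIs of S100a9 after physical injury were in 1 cell, and the 1096 UMIs after ischemic injury were in 8 cells, with 463 in 1 of them. S100a8 was in 4 and 12 cells. Without cells with 3 or more UMIs of vascular markers the log2 ratios of S100a8 and S100a9 were 1.48 and 1.12, down from 2.50 and 2.30. Retnlg, another neutrophil gene, had 0 UMIs after physical injury (up to 0.753 CPM at 3 counts) and 97 UMIs after ischemic injury, while Camp and Ngp of immature neutrophils had at most 2 UMIs in a library. Xcl1, Gzma, Nkg7 and Klrd1, genes of T and NK cells, were also among the 10 largest ratios toward ischemic injury, at 94.6, 86.1, 76.5 and 50.6 CPM there and 17.3, 27.1, 31.1 and 20.6 CPM after physical injury. Klrd1 was found in 23 and 46 cells (7.23% and 17.4%), at 339 CPM in the T and NK cell-like sub-cluster and 65.0 CPM in sub-cluster 2. Gzma was in 4 and 8 cells, and the T and NK cell-like sub-cluster held 100% and 99.7% of its UMIs. With the methods' filters applied again, the log2 ratios of Gzma, Nkg7 and Klrd1 fell under 2-fold, to 0.76, 0.83 and 0.99. That of Xcl1 was 1.58. With all cells, the log2 ratios of Xcl1, Gzma, Nkg7 and Klrd1 were 2.38, 1.63, 1.27 and 1.26. Without cells with 3 or more UMIs of vascular markers they were 4.24, 3.99, 1.61 and 0.98. With cells thinned to 1000 UMIs they were 3.18, 2.53, 1.65 and 2.00. Without sub-clusters 1, 5 and 8, those of Xcl1, Gzma, Nkg7 and Klrd1 were 0.00, 0.37, 0.00 and 0.27. Sub-cluster 5 was led by Xcl1, Gzma and Nkg7, so that the fall of their ratios was fixed by the choice of cells. Xcl1 and Nkg7 had no UMI in the other cells, and their 0.00 is the pseudocount alone and not an equal level. Ifitm1 was at 85.6 and 387 CPM, found in 11.3% and 27.5% of cells, and AA467197 at 30.6 and 101 CPM. Without cells with 3 or more UMIs of vascular markers their log2 ratios were 2.84 and 2.79, up from 2.16 and 1.69. That of AA467197 was 2.33 with the methods' filters.

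Spp1, which encodes the matrix protein osteopontin, was at 201 CPM (188 to 216) after physical and 562 CPM (540 to 586) after ischemic injury, in 83 and 72 cells. Of the UMIs of Spp1, 5 cells held 51.7% and 53.7%. Its log2 ratio was 1.48, and 2.18 with the methods' filters applied again. Sub-cluster 4 held 76.4% and 66.6% of its UMIs, and within it Spp1 was at 1268 and 2765 CPM. Fn1 was at 751 and 2740.2 CPM, and thrombospondin, Thbs1, at 608 and 1557 CPM in the same sub-cluster. Over all cells Thbs1 was at 175 and 365 CPM. Of the 8 repair genes with enough counts it was the 1 past 2-fold toward ischemic injury, at a log2 ratio of 1.06 that fell to 0.99 with TMM factors. Retnla and Hmox1 were the 2 past 2-fold the other way. Among all 3337 genes the shares were 0.629% toward ischemic and 0.509% toward physical injury. In the NG2 cells Spp1 was at 273 and 2705 CPM.

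Retnla, a secreted protein of alternatively activated macrophages (chromosome 16, 48842551 to 48844461), was at 635 CPM (611 to 660) after physical and 53.2 CPM (46.4 to 60.8) after ischemic injury. It was found in 26 cells (8.18%) after physical injury, of which 1 held 587 of the 2531 UMIs, and in 3 cells (1.13%) after ischemic injury. Its log2 ratio was -3.55, and -2.87 with the methods' filters applied again. Hmox1 was at 309 CPM (292 to 326) and 61.7 CPM (54.4 to 69.8), but it was found in 36.2% and 35.1% of cells, and 5 cells held 79.9% of its 1230 UMIs after physical injury. With the filters of the study's methods applied again to the deposited cells, which left 246 and 196 cells, its ratio turned to 0.24 on the log2 scale from -2.30. The chemokine Cxcl1, which draws neutrophils, was at 108 and 26.1 CPM. It was found in 12.3% and 6.04% of cells, beside 10.6% and 13.8% of the endothelial cells. Ear2, a ribonuclease of monocytes and eosinophils, was at 91.8 and 33.9 CPM, and the prostaglandin synthase Ptgds at 73.5 and 28.1 CPM. Sparcl1 was at 64.2 and 21.5 CPM, in 16.7% and 10.2% of cells, beside 92.3% of the endothelial cells after physical injury. Its log2 ratio fell under 2-fold, from -1.53 to -0.25 without the highest doublet scores, -0.61 with the methods' filters, -0.56 without cells with 3 or more UMIs of vascular markers and -0.29 without sub-clusters 1, 5 and 8. With cells thinned to 1000 UMIs it went the other way, to -3.33. The log2 ratio of Ear2 was -1.41, and -0.17 with cells thinned to 1000 UMIs. It was -2.30 with the methods' filters and -1.91 without cells with 3 or more UMIs of vascular markers. That of Ptgds was -1.36, and -0.94 without sub-clusters 1, 5 and 8.

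**Figure D4:**
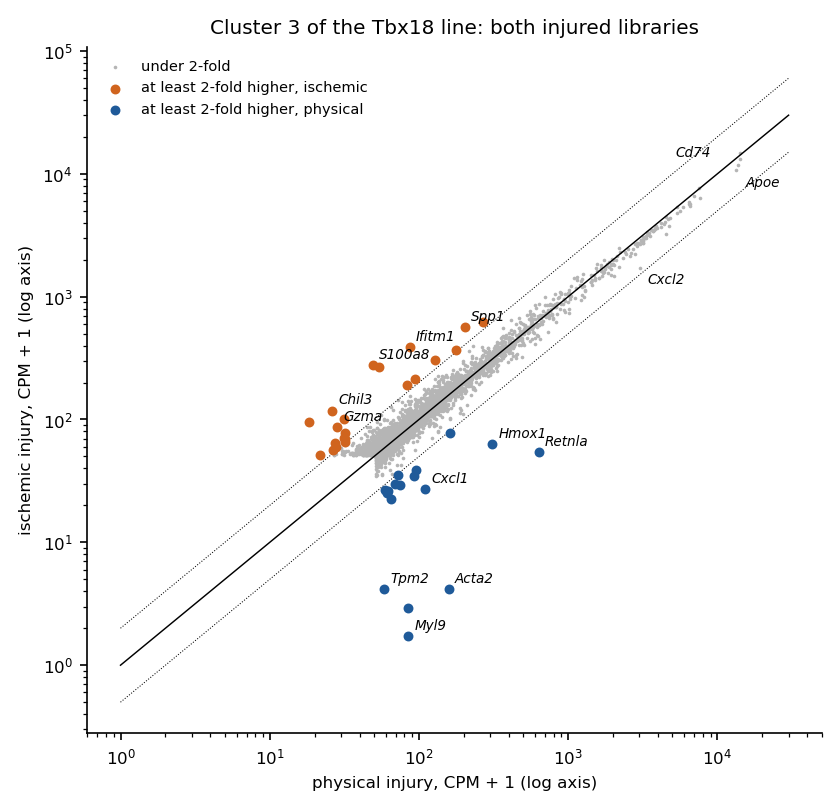
Level of the 3337 genes with at least 50 CPM in the higher library, in CPM + 1 (log axes), after physical (x) and ischemic (y) injury in cluster 3. The solid line is equality and the dotted lines are 2-fold; 21 genes (orange) are higher after ischemic and 17 genes (blue) after physical injury, and the smooth muscle genes Acta2, Tpm2, Tagln and Myl9 lie farthest from the line.

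The other largest ratios toward physical injury were contractile genes. Acta2 was at 157 CPM (145 to 170) after physical and 3.15 CPM (1.67 to 5.38) after ischemic injury, Tagln at 83.6 and 1.94 CPM, and Tpm2 at 57.7 and 3.15 CPM. Myl9 had 334 and 3 UMIs. The log2 ratios of Acta2, Tagln, Tpm2 and Myl9 were -5.25, -4.85, -3.82 and -5.62. Without the highest doublet scores they shrank to -3.15, -2.15, -2.10 and -3.16. Without cells with 3 or more UMIs of vascular markers they were -3.19, -2.12, -1.93 and -2.75, and without sub-clusters 1, 5 and 8 they were -3.05, -1.87, -2.02 and -2.98. The vascular markers include Acta2, Tagln and Myl9 themselves, and sub-cluster 1 was led by genes that include all 4. Smaller ratios in these 2 settings were therefore partly fixed by the choice of cells and are no check. With cells thinned to 1000 UMIs they were -3.12, -6.48, -5.49 and -5.68, so that those of Tagln and Tpm2 were larger. All 3 smooth muscle genes with enough counts were past 2-fold, beside 0.509% of all 3337 genes toward physical injury. The list of 6 summed to 378 and 6.53 CPM, with Acta2 the most abundant of them and Cnn1 and Des at 0 after ischemic injury. Acta2 was in 115 and 12 cells, but 5 cells held 77.8% of its UMIs after physical injury. The endothelial cells moved the same way: Acta2 was found in 21.9% of them after physical and 2.89% after ischemic injury, beside 36.2% and 4.53% of the cells of cluster 3. Thinned to 1000 UMIs the shares were 4.21% and 0.338% in endothelial cells and 5.35% and 1.14% in cells of cluster 3. The part of the 827 and 47 smooth muscle cells of cluster 1 in this difference was not tested.

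**Figure D5:**
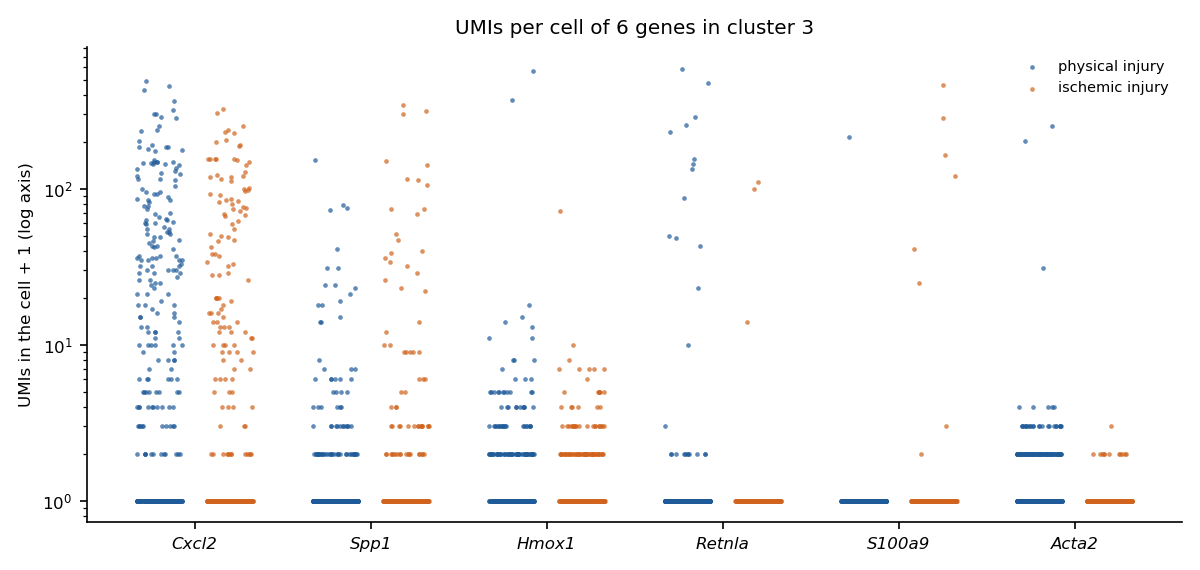
UMIs + 1 of 6 genes in each of the 318 physical (blue) and 265 ischemic (orange) injury cells of cluster 3 (log axis; cells without a UMI lie at 1). Cxcl2 is spread over many cells, whereas a few cells hold most UMIs of Retnla and S100a9, and most UMIs of Hmox1 and Acta2 after physical injury.

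Markers of other cell types were lower than the myeloid genes but present. The 8 endothelial genes summed to 203 and 290 CPM, beside 20396 and 19807 CPM in the endothelial cells, with Cldn5 at 56.5 and 74.3 CPM, and neither of the 2 with enough counts was past 2-fold. The 8 pericyte genes summed to 62.5 and 8.47 CPM and the 7 fibroblast genes to 19.3 and 11.6 CPM, and none of these genes reached 50 CPM. Vtn was at 22.6 and 2.66 CPM. The 8 glia genes summed to 77.8 and 86.9 CPM, of which Mbp alone had enough counts and was not past 2-fold. The 4 red blood cell genes summed to 13.3 and 8.47 CPM, and the Cre drivers Tbx18 and Cspg4 to 6.02 and 0.726 CPM. The 10 neutrophil genes summed to 145 and 635 CPM, and of the 3 with enough counts S100a8 and S100a9 were past 2-fold. For this list and the next 2, the share of all 3337 genes past 2-fold either way was 1.14%. Of the B cell genes, 2 had enough counts and neither was past 2-fold, with sums of 204 and 159 CPM. The 10 T and NK cell genes summed to 146 and 296 CPM. Of these, 2 had enough counts and both, Nkg7 and Gzma, were past 2-fold, which neither was with the methods' filters. Without sub-clusters 1, 5 and 8, the counts past 2-fold were 20 higher after ischemic and 8 higher after physical injury, a choice made after seeing the data, and 16 and 7 of the original genes were among them.

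The inflammatory genes spanned a wide range of levels, with Il6 at 4.01 and 2.18 CPM. The neutrophil chemokine Cxcl2 was at 3006 CPM (2952 to 3060) after physical and 1719 CPM (1679 to 1759) after ischemic injury, in 59.4% and 46.4% of cells. Sub-cluster 1 held 46.4% of its UMIs after physical injury, and sub-cluster 3 went the other way, at 1430 and 2382 CPM. The log2 ratio over all cells was -0.81, and -0.51 without sub-clusters 1, 5 and 8. Ccl4 was at 2012 and 1798 CPM, Ccl3 at 1005 and 789.6 CPM, and Tnf at 163 and 123 CPM. Il1b went the other way, at 1263 and 1526 CPM. Of the 11 genes of this list with enough counts, 9 were lower after ischemic injury and none was past 2-fold, with a median log2 ratio of -0.33. Of the 9 interferon response genes none was past 2-fold (median 0.14), with Rsad2 at 26.1 and 50.3 CPM and Ifit3 at 32.6 and 54.7 CPM as examples with larger ratios. Of the 8 genes of glycolysis and hypoxia 7 were higher after ischemic injury, none past 2-fold, with a median of 0.19 and Eno1 at 74.0 and 114 CPM. Of the proliferation genes, 2 had enough counts and neither was past 2-fold. Mki67 was at 28.9 and 39.2 CPM, and in the T and NK cell-like sub-cluster at 236 CPM.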

How the data were processed

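Droplet libraries (10x Genomics 3') were aligned to mm10 by the authors, and the submitters' notes name Cell Ranger 7.0.0. The authors deposited raw UMI counts for the cells that passed their filters, with a percent of mitochondrial UMIs for each cell, which served here only to repeat those filters (at least 200 genes, at most 12%, UMIs and genes within 2 SD). Cluster numbers are those of the authors' Seurat annotation.

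UMIs of cluster 3 were summed per library and scaled to CPM. Ratios used a pseudocount of 1 CPM (10 CPM for sub-clusters) and left out mitochondrial genes, Gm42418 and AY036118. Sub-clusters came from Leiden clustering at resolution 0.5, with 15 neighbours in 20 principal components of 2000 variable genes. All cells were kept, since no source used here mentions doublets. Scrublet called 45 of 5892 cells, 5 of them in the cluster. As an alternative the 152 highest scores, 19 in the cluster, were removed.

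The members and the 28 gene lists were chosen with earlier results of these data known. The genes named are members of those lists, the 10 largest ratios each way and the 10 leading genes of each sub-cluster. Some list members are not reported here by name. Promoters are from RefSeq, and gene positions from GENCODE M21, possibly another annotation than the authors used. The computation of ratios was tested on simulated data. The tools were scanpy 1.11.5, leidenalg 0.10.2, edgeR 4.0.16 (TMM factors, in R 4.3.3), numpy 2.4.6, pandas 2.3.3, scipy 1.17.1 and matplotlib 3.10.9 under Python 3.11.15.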

Additional observations from a re-analysis of the deposited data

Results flagged for a closer look

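Outside cluster 3, cells with at least 6 of the 10 pan-myeloid markers were found in cluster 4, which the study named vascular-genic pericytes: 30 of 349 cells (8.60%) after physical and 16 of 143 cells (11.2%) after ischemic injury. After physical injury 1 of 116 cells of cluster 5 (0.862%) was the only other. There were 0 of 157 such cells in cluster 4 of the naïve library, which at a floor of 3 counts allows a share of up to 1.91%. The 46 cells of cluster 4 had a median of 3606.5 UMIs. They held Lyz2 at 10050.5 CPM, Cd74 at 4881 CPM, C1qa at 3215 CPM, Mrc1 at 429 CPM, P2ry12 at 58.7 CPM and Acta2 at 1671 CPM.

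Of the 20 genes with the largest ratios between the injuries in cluster 3 of the Tbx18 line, 3 reached 50 CPM in cluster 9 of the NG2 line, and the ratios of 2 of these went opposite ways in both, a difference that was not tested. Of all 3337 genes, 2825 reached 50 CPM there and 57.3% of these went opposite ways, as did the sums of 18 of the 28 lists, so that 2 of 3 is near the share over all genes. For Hmox1 the log2 ratio, ischemic over physical, was -2.30 in the Tbx18 cells and 1.58 in the NG2 cells, where its levels were 165 and 494 CPM. In the Tbx18 line 5 cells held 79.9% of its UMIs after physical injury, and with the methods' filters applied again the ratio was 0.24, the direction of the NG2 cells. For Ptgds it was -1.36 and 1.34, with 29.6 and 76.2 CPM in the NG2 line, and -0.94 in the Tbx18 line without sub-clusters 1, 5 and 8.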

How the results depend on the processing

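The share of cluster 3 among the sorted cells was higher after ischemic injury under all 5 alternatives. The difference was 31.9 points with endothelial cluster 0 left out of the denominator and 2.71 points with smooth muscle cluster 1 left out, the latter an alternative added after seeing the data. The counts of genes past 2-fold, 21 toward ischemic and 17 toward physical injury, became 62 and 35 with a minimum of 20 CPM, 11 and 5 with 100 CPM, 457 and 528 without a minimum, 190 and 100 with cells thinned to 1000 UMIs, and 33 and 10 without cells with 3 or more vascular marker UMIs. With the mean of the cells' own CPM 42 genes were past 2-fold toward ischemic injury. Toward physical injury they were 9 with the methods' filters applied again, 8 without the highest doublet scores and 8 without sub-clusters 1, 5 and 8. TMM factors changed neither count by over 1.5 times. For single genes, 149 alternative values lay within the counting interval, 106 outside it, and 1 of a gene past 2-fold reversed: Hmox1, at 0.24 with the methods' filters. Ms4a7, within its counting interval, went from 0.06 to -0.01 with TMM factors. The causes were not tested. The number of sub-clusters was 7 at resolution 0.3, 12 at 1.0 and 9 without proliferation and ribosomal protein genes. At 0.3 all 22 cells of the border macrophage-like sub-cluster 7 shared a group of 132 cells with all 100 cells of sub-cluster 1, and 133 cells of sub-cluster 0 and 69 of sub-cluster 3 formed a group of 202. At 1.0 the largest groups held 47.2% of sub-cluster 0, 54.5% of sub-cluster 3 and 68.3% of the T and NK cell-like sub-cluster 5. The dendritic cell-like sub-clusters 2 and 6 kept at least 90.6% of their cells together in all 3. No paired analysis was possible because each condition has 1 library. Intervals hold counting error only, so that no difference between injuries can be set against the spread between animals.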

Other observations

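Some genes of other lineages were found in many cells of the cluster. Mbp, known from myelin, had a UMI in 42.1% of cells after physical and 47.9% after ischemic injury, at 65.2 and 73.3 CPM, and in 0.336% and 0.202% of the endothelial cells. At 1000 UMIs per cell it was found in 5.35% and 7.60% of the cells of cluster 3, and in 0.115% of the endothelial cells after physical injury. Mog had 0 UMIs in both libraries (up to 0.753 and 0.726 CPM at 3 counts). Ighm, the heavy chain of IgM, had a UMI in 61.3% and 59.2% of cells, at 127 and 110.1 CPM, and in 0.168% and 0.403% of the endothelial cells, while Cd79a had 0 UMIs. Ighm was also at 120 and 87.6 CPM in the NG2 cells.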
